A study of Mus musculus with 6 samples.

Results

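The data were RNA-Seq libraries of WT mouse embryonic fibroblasts (MEFs), cells grown from the connective tissue of mouse embryos, and the genes described here are those that encode the chains of collagens. A gene was taken as a collagen gene where its symbol had the form Col, number, a, number, which held for 44 of the 51499 loci in the deposited count table, and none of these loci was joined with another gene. The control cultures (Scr) were WT MEFs transfected with a scrambled siRNA, and the Yme1l siRNA cultures were the same cells transfected with siRNA against *Yme1l*, the gene of a protease in the mitochondrial inner membrane. Both groups were collected after 72 h, with 3 independent cultures per group. No other agent or allele distinguished the groups. The line was grown from a single clone. The methods name the SV40 large T antigen as what immortalized it, whereas the labels name 3T3 immortalization. All values therefore refer to cultures of 1 line.

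Collagens are secreted proteins in which 3 chains wind into a triple helix. Fibrillar collagens (types I, II, III, V and XI and their relatives) assemble into the rope-like fibrils that give tendon, skin and bone their tensile strength, and fibroblasts are among their producers. Type IV collagen builds the sheet-like network of basement membranes, where the multiplexins (types XV and XVIII) also reside. The remaining collagens include the beaded microfibrils of type VI, the fibril-associated collagens with interrupted helices (FACITs), the short-chain network formers of types VIII and X, the anchoring fibrils of type VII and chains that span the plasma membrane. Of the 44 collagen genes, 11 were fibrillar, 8 belonged to basement membranes and 25 were placed in the remaining class.

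The libraries held between 37260605 and 45205207 counts. *Yme1l1*, the mouse symbol of *Yme1l*, lay at 170, 171 and 171 CPM (counts scaled to 1e6 per library) in the Scr cultures and at 31.6, 23.4 and 45 CPM in the Yme1l siRNA cultures, which was 19.5% of the Scr level (log2 fold change -2.36 ± 0.2 SE, edgeR adjusted p = 3.87e-05). CPM values here are relative to the library size after TMM scaling. A gene was called higher or lower where the Benjamini-Hochberg adjusted p of edgeR's quasi-likelihood test, taken over all 14499 loci that passed the filter on low counts, was under 0.05. The knockdown moved a large part of the transcriptome: 28.4% of the loci tested were called higher, 29.6% were called lower, and for 65.4% the 3 values of one group did not overlap those of the other. The median log2 fold change over all loci tested was 0.01.

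Of the 44 collagens, 31 passed the filter. In the Yme1l siRNA cultures 18 of these fell and 4 rose, and 9 did not pass the test. The lower members are 58.1% of the collagens tested, beside 29.6% of all loci, and the higher members are 12.9%, beside 28.4%. A fall of at least 2-fold was found for 10 collagens (32.3%), beside 7.28% of all loci tested. The groups did not overlap for 21 collagens (67.7%), of which 18 were lower, a share near the 65.4% of all loci. The log2 fold changes of the 31 collagens ranged from -2.09 (*Col6a2*) to 2.32 (*Col6a5*), with a median of -0.64. At an unadjusted p under 0.05, 19 were lower and 4 were higher. The 4 that rose (*Col2a1*, *Col6a5*, *Col7a1* and *Col17a1*) lay at or below 27 CPM in every culture. The number that rose was 2 without Yme1l siRNA culture 2. Among the 21 collagens with a mean over all cultures of at least 10 CPM, 16 fell and 1 rose, with a median of -0.69. The share called over all loci of that level was not computed, so this count has no background beside it.

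**Figure D1:**
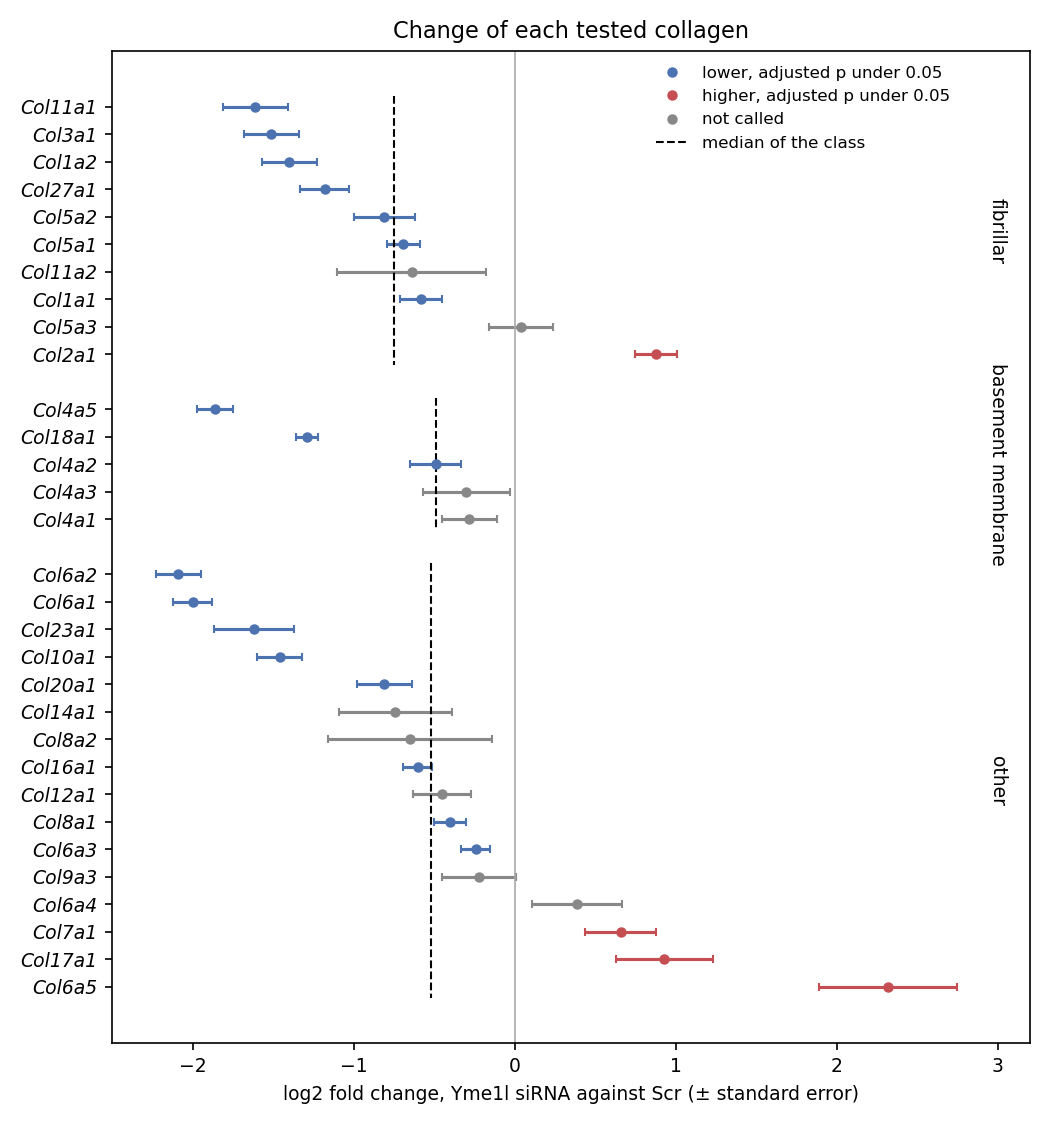
The log2 fold change (Yme1l siRNA against Scr, with its standard error) is plotted for each of the 31 collagens tested, grouped into fibrillar, basement membrane and other collagens. Points left of 0 are lower after the knockdown, colours mark the calls at an adjusted p under 0.05, and the dashed lines mark the class medians of -0.75, -0.49 and -0.52.

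The 13 collagens that were not tested had at most 14 counts in any library. They are *Col4a4*, *Col4a6*, *Col6a6*, *Col9a1*, *Col9a2*, *Col13a1*, *Col15a1*, *Col19a1*, *Col22a1*, *Col24a1*, *Col25a1*, *Col26a1* and *Col28a1*. *Col13a1*, *Col19a1* and *Col26a1* had 0 counts in all 6 libraries, which allows up to 3 counts per library, or between 0.0664 and 0.0805 CPM of the unscaled library total. Such limits cover counting error only.

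Collagen transcripts made up 3.84%, 3.41% and 3.19% of all counts in the Scr cultures and 2.08%, 2.06% and 1.66% in the Yme1l siRNA cultures. Every Yme1l siRNA culture lay below every Scr culture. The mean share thus went from 3.48% ± 0.329 to 1.93% ± 0.236 (SD, n = 3 each). Fibrillar collagens held most of it, with 2.65% ± 0.283 of all counts in the Scr cultures and 1.48% ± 0.226 in the Yme1l siRNA cultures. The 3 genes *Col1a1*, *Col1a2* and *Col3a1* alone held 2.31% and 1.28%. Basement membrane collagens held 0.0569% and 0.0283%, and the remaining collagens held 0.774% and 0.424%. In bulk RNA, fewer cells that make a transcript and less of that transcript per cell cannot be told apart.

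**Figure D2:**
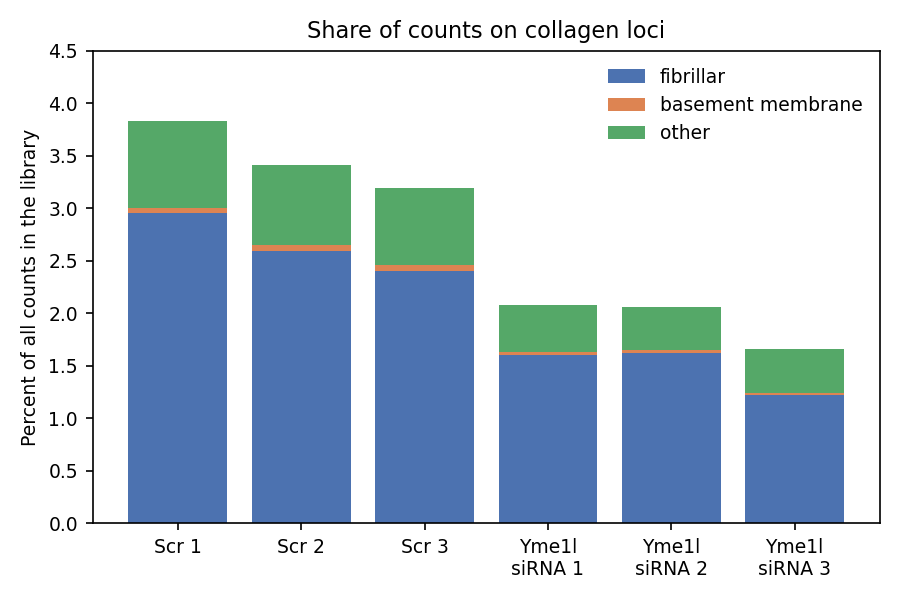
Bars show the percentage of all counts in each library that fell on collagen loci, stacked by class. The 3 Scr libraries reach 3.84%, 3.41% and 3.19%, and the 3 Yme1l siRNA libraries reach 2.08%, 2.06% and 1.66%, with fibrillar collagens as the largest part of every bar.

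By class, 7 of the 10 fibrillar collagens tested fell and 1 rose, with a median log2 fold change of -0.75 and 4 falls of at least 2-fold. Of the 5 basement membrane collagens tested, 3 fell and none rose, with a median of -0.49. At an unadjusted p under 0.05 the same test also gave 3 lower and 0 higher in this class. Of the 16 remaining collagens tested, 8 fell and 3 rose, with a median of -0.52. Over all loci tested, 29.6% were called lower and 28.4% higher. The order of the class medians changed with the cultures and the filter. Without Yme1l siRNA culture 2 they were -0.95 (fibrillar), -0.57 (basement membrane) and -0.48 (remaining), without Yme1l siRNA culture 3 they were -0.61, -0.3 and -0.39, and with a minimum mean of 50 counts they were -0.72, -0.86 and -0.56. Log2 fold changes within a class spread over 2.49 (fibrillar), 1.58 (basement membrane) and 4.41 (remaining), and no test was made of a difference between classes. Within the remaining class, 2 of 5 FACITs, 2 of 3 short-chain collagens and 3 of 5 type VI chains fell.

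Levels per kilobase used the union of all annotated exons of a gene as its length, which can exceed the length of its mRNA. This length was 6563 bases for *Col1a1*, 12426 for *Col1a2*, 9816 for *Col3a1*, 4380 for *Col6a1* and 11963 for *Col6a3*. The order of genes per kilobase therefore depends on these lengths. In mean CPM, *Col1a2* (6160) and *Col3a1* (4850) lay above *Col6a1* (2530) in the Scr cultures. Ranked per kilobase of this length, type I and type VI chains stood at the top in the Scr cultures. *Col1a1* had 1930 ± 261 CPM per kb, followed by *Col6a1* with 578 ± 84.5, *Col1a2* with 496 ± 54.6, *Col3a1* with 494 ± 104 and *Col6a3* with 249 ± 14.3 (SD, n = 3 each). Per kilobase, *Col6a1* was above *Col1a2* and *Col3a1* in each Scr culture, although the group means lay within the spread between cultures. *Col1a2* and *Col3a1* changed order from culture to culture. In the Yme1l siRNA cultures *Col1a1* kept rank 1 with 1300 ± 163 CPM per kb, *Col6a3* stood at rank 2 with 211 ± 16.8, and *Col6a1* stood at rank 5 with 144 ± 6.6. *Col1a2* (188 ± 40.8) and *Col3a1* (173 ± 23.8) lay between them. *Col6a3*, *Col1a2* and *Col3a1* were not all separated beyond their spread, since *Col1a2* lay within its SD of each of the others. Within cultures, *Col6a3* was above *Col3a1* in each Yme1l siRNA culture, whereas *Col1a2* was above *Col6a3* in Yme1l siRNA culture 2.

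**Figure D3:**
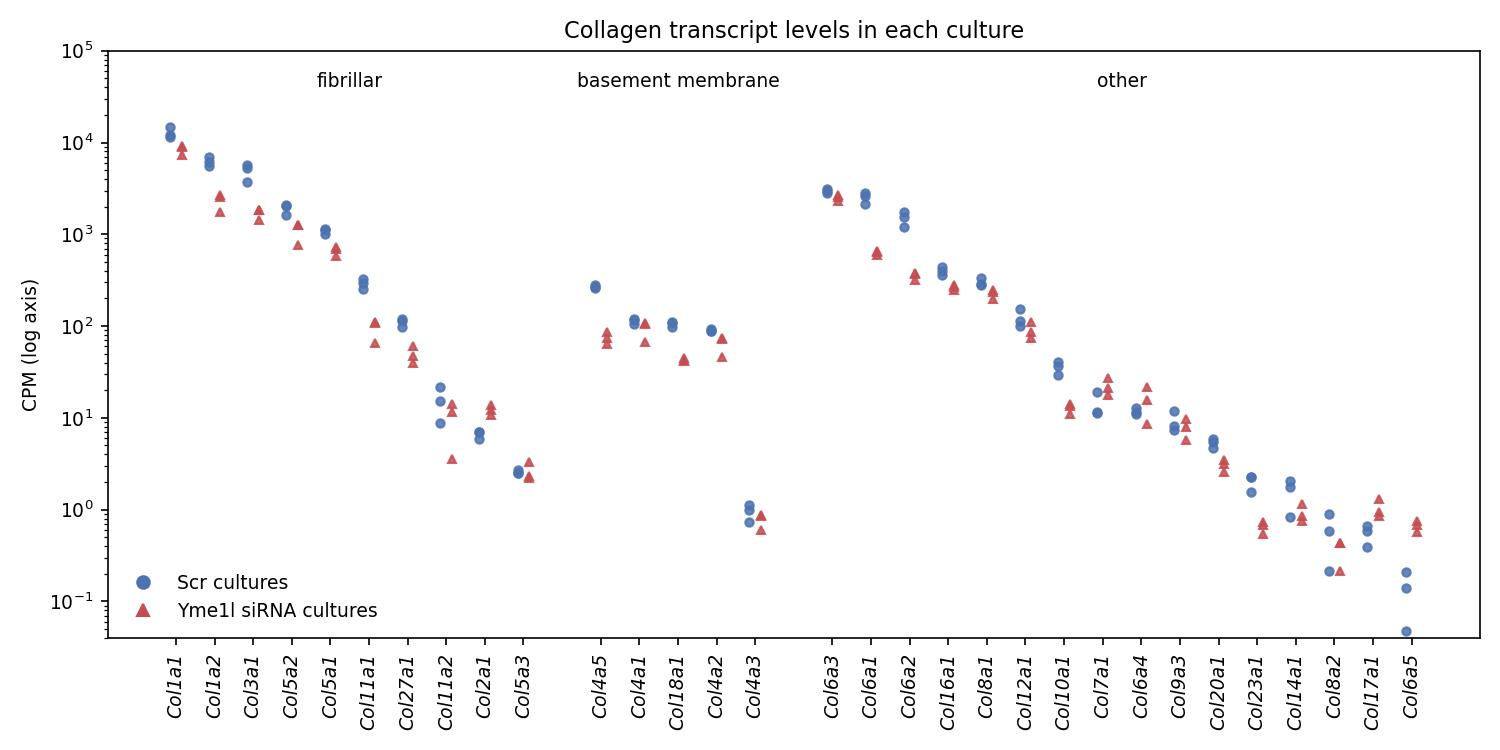
Each point is the CPM of 1 culture on a log axis, for the 31 collagens tested, sorted within each class by level. Triangles (Yme1l siRNA) lie below circles (Scr) for most collagens above 10 CPM, with *Col6a1*, *Col6a2* and *Col4a5* widely separated and *Col6a3* close together.

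Type I collagen, the main protein of bone, tendon and skin, consists of α1 chains from *Col1a1* and an α2 chain from *Col1a2*. *Col1a1* (chr11:94936224-94953042, mm10) lay at 14700, 12000 and 11500 CPM in the Scr cultures and at 9030, 9210 and 7280 CPM in the Yme1l siRNA cultures. The groups did not overlap, and the level fell to 67% of the Scr level (log2 fold change -0.58 ± 0.13 SE, edgeR adjusted p = 0.00535). *Col1a2* (chr6:4504814-4541544) lay at 6870, 6080 and 5520 CPM in the Scr cultures and at 2710, 2550 and 1760 CPM after the knockdown. It fell 2.63-fold, with every Yme1l siRNA culture well below every Scr culture (log2 fold change -1.4 ± 0.17 SE, edgeR adjusted p = 0.000177). The partner chains of type I collagen therefore fell by unequal amounts.

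*Col3a1* encodes the only chain of type III collagen, which mixes with type I in the fibrils of skin and vessels. Its levels were 5630, 5240 and 3690 CPM in the Scr cultures and 1840, 1830 and 1430 CPM in the Yme1l siRNA cultures (chr1:45311538-45349706). The lowest Scr culture was still above every Yme1l siRNA culture, and the fall was 2.86-fold (log2 fold change -1.51 ± 0.17 SE, edgeR adjusted p = 0.000137). An annotated miRNA gene, *Gm47302*, shares 141 exonic bases with *Col3a1* on the same strand, so that reads there cannot be assigned to one of them.

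Type V collagen starts fibrils and limits their width. *Col5a1* (chr2:27886425-28039514) measured 1130, 1010 and 1100 CPM in the Scr cultures and 730, 697 and 582 CPM in the Yme1l siRNA cultures. *Col5a2* (chr1:45374321-45503282), whose locus lies 24614 bases from that of *Col3a1*, measured 2080, 2030 and 1640 CPM and then 1260, 1260 and 773 CPM. Neither gene's groups overlapped. *Col5a1* fell to 61.8% of the Scr level (log2 fold change -0.69 ± 0.1 SE, edgeR adjusted p = 0.000516) and *Col5a2* to 57.2% (log2 fold change -0.81 ± 0.19 SE, edgeR adjusted p = 0.0059). *Col5a3*, the third type V chain, lay at 2.55 ± 0.109 and 2.63 ± 0.594 CPM with a log2 fold change of 0.04 ± 0.2 SE.

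*Col11a1*, the type XI chain that nucleates cartilage fibrils and is also made by embryonic fibroblasts, had the most negative log2 fold change of the fibrillar class. It lay at 322, 291 and 252 CPM in the Scr cultures and at 111, 107 and 64.7 CPM in the Yme1l siRNA cultures. The groups were far apart, with a 3.06-fold fall (log2 fold change -1.61 ± 0.2 SE, edgeR adjusted p = 0.0002). *Col27a1*, a fibrillar collagen of cartilage, fell from 110 ± 10.9 to 48.8 ± 10.8 CPM. *Col2a1*, the main collagen of cartilage, was at a low level and moved the other way, from 6.66 ± 0.658 to 12.3 ± 1.5 CPM, with a log2 fold change of 0.88 ± 0.13 SE (edgeR adjusted p = 0.000588) and groups that did not overlap. *Col11a2* had a log2 fold change of -0.64 ± 0.46 SE and overlapping groups. *Col24a1* was not tested.

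Among basement membrane collagens, the type IV chains differed widely. *Col4a1* and *Col4a2* encode the chains found in nearly all basement membranes, and their loci lie head to head on chromosome 8, sharing 22 exonic bases on opposite strands. *Col4a1* (chr8:11198423-11312826) measured 120, 117 and 105 CPM in the Scr cultures and 106, 109 and 66.5 CPM after the knockdown. Its groups overlapped, and the log2 fold change of -0.28 ± 0.17 SE did not pass the test (edgeR adjusted p = 0.181). *Col4a2* (chr8:11312805-11449287) measured 93.6, 89.4 and 87.5 CPM and then 74.7, 71.9 and 46.2 CPM. These groups did not overlap (log2 fold change -0.49 ± 0.16 SE, edgeR adjusted p = 0.0287), but the call was lost when any 1 of the 3 Scr cultures was left out, with edgeR adjusted p between 0.0522 and 0.0725. For both genes Yme1l siRNA culture 3 was the lowest.

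*Col4a5*, a chain of the kidney, lung and eye basement membranes, had the highest level per kilobase of this class in the Scr cultures. It lay at 269, 261 and 282 CPM in the Scr cultures and at 85.9, 74.2 and 64.4 CPM in the Yme1l siRNA cultures (chrX:141475385-141689234). The gap between the groups was many times the spread within them, with a 3.62-fold fall (log2 fold change -1.86 ± 0.11 SE, edgeR adjusted p = 7.94e-06). *Col4a6*, which lies head to head with *Col4a5* at a distance of 1308 bases, was counted 4, 3 and 3 times with Scr siRNA and 2, 1 and 0 times with Yme1l siRNA, and it was not tested. *Col4a3* lay at 0.955 ± 0.202 and 0.775 ± 0.157 CPM (log2 fold change -0.3 ± 0.27 SE, not called), and it shares 563 exonic bases with the opposite-strand transcript *C430014B12Rik*. Whether the counting used the strand is not given in the sources used here.

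*Col18a1* encodes the multiplexin that is the precursor of endostatin. It lay at 108, 112 and 98.7 CPM in the Scr cultures and at 43.2, 44.9 and 42.1 CPM in the Yme1l siRNA cultures (chr10:77052178-77166548). Values within each group were close together and the groups far apart (2.45-fold lower, log2 fold change -1.29 ± 0.07 SE, edgeR adjusted p = 7.67e-06). *Col15a1*, the related multiplexin, was not tested.

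Type VI collagen forms beaded microfibrils around cells from α1, α2 and one further chain, most often α3. *Col6a1* (chr10:76708792-76726168) lay at 2850, 2620 and 2120 CPM in the Scr cultures and at 651, 643 and 597 CPM in the Yme1l siRNA cultures. *Col6a2* (chr10:76595762-76623630) lay at 1760, 1560 and 1210 CPM and then at 371, 374 and 316 CPM. Both genes had groups far apart, and these were the most negative log2 fold changes of all collagens, a 4.01-fold fall for *Col6a1* (log2 fold change -2.0 ± 0.12 SE, edgeR adjusted p = 8.28e-06) and a 4.27-fold fall for *Col6a2* (-2.09 ± 0.14 SE, edgeR adjusted p = 1.45e-05). They lie on the same strand of chromosome 10, 85161 bases apart.

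*Col6a3*, on another chromosome (chr1:90765923-90843971), had a smaller log2 fold change than these partners. It lay at 3000, 2800 and 3140 CPM in the Scr cultures and at 2710, 2310 and 2560 CPM in the Yme1l siRNA cultures. The groups lay next to each other without overlap, and the level was 84.6% of the Scr level (log2 fold change -0.24 ± 0.09 SE, edgeR adjusted p = 0.049). This call was lost when any 1 of the 6 cultures was left out, with edgeR adjusted p between 0.0544 and 0.134. The chains *Col6a4*, *Col6a5* and *Col6a6*, which lie side by side on chromosome 9, were scarce. *Col6a5* was counted 9, 5 and 2 times with Scr siRNA and 30, 33 and 24 times with Yme1l siRNA, with no overlap (log2 fold change 2.32 ± 0.43 SE, edgeR adjusted p = 0.00195). A stretch of 572 bases of *Col6a5* is 96.9% identical to *Col6a6*, so that reads there may have been split between the 2 genes. *Col6a4* lay at 11.8 ± 0.965 and 15.4 ± 6.61 CPM and was not called.

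Because *Col6a1* and *Col6a2* fell by similar factors and *Col6a3* by less, the 100 bases before their RefSeq transcript starts (GRCm38.p6) are shown, written on the gene's strand. Capitals mark matches on either strand to GGGCGG (the GC box), CCAAT or, on the gene's strand in the last 50 bases, TATAAA. *Col6a2* has 2 annotated starts, and the regions are chr10:76726045-76726144, chr10:76623405-76623504, chr10:76623631-76623730 and chr1:90843972-90844071, all on the minus strand.
Col6a1: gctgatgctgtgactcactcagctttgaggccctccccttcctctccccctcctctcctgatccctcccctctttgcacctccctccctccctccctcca
Col6a2, downstream start: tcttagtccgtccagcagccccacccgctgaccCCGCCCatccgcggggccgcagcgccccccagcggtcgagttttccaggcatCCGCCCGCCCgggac
Col6a2, upstream start: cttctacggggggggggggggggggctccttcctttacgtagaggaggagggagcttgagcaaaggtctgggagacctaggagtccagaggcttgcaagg
Col6a3: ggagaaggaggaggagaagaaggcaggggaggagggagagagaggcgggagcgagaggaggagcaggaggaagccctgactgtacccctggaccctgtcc
Within 250 bases before the start, neither *Col6a1* nor *Col6a3* held any of these letters, and *Col6a2* held only the GC box. The RefSeq promoter table matched 24 of the 31 collagens tested. Counting a gene once if any of its starts matched, GGGCGG was found for 17 of these 24 and for 64.0% of 9795 genes tested, CCAAT for 11 of 24 and for 40.9%, and TATAAA for 1 (*Col10a1*) and for 1.81%. Over all 32851 promoters in the table, tested or not and each start counted, the shares were 32.7%, 33.8% and 2.63%. A match describes letters in the window and is not a measured binding site.

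The remaining class held further falls. *Col10a1*, the short-chain collagen of hypertrophic cartilage, lay at 40.3, 36.3 and 29 CPM in the Scr cultures and at 13.3, 10.9 and 14.3 CPM in the Yme1l siRNA cultures. Its groups did not overlap (2.74-fold lower, log2 fold change -1.46 ± 0.14 SE, edgeR adjusted p = 6.99e-05). *Col8a1*, a network former of vessels and cornea, fell to 75.5% of the Scr level, and *Col8a2* was not called. Of the FACITs, which sit on fibril surfaces, *Col16a1* fell from 400 ± 42.6 to 264 ± 15 CPM and *Col20a1* from 5.37 ± 0.63 to 3.06 ± 0.446 CPM. *Col12a1* went from 123 ± 27.5 to 90.2 ± 18.2 CPM with overlapping groups (log2 fold change -0.45 ± 0.18 SE, edgeR adjusted p = 0.061), and *Col14a1* and *Col9a3* were not called either. The last has 234 exonic bases in common with *Tcfl5* on the opposite strand.

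The transmembrane collagens split. *Col23a1* fell from 2.02 ± 0.392 to 0.655 ± 0.102 CPM (log2 fold change -1.62 ± 0.25 SE, edgeR adjusted p = 0.000661). *Col17a1*, a hemidesmosome component of skin, rose from 0.546 ± 0.139 to 1.04 ± 0.24 CPM (log2 fold change 0.93 ± 0.3 SE, edgeR adjusted p = 0.0253). *Col7a1*, the anchoring fibril chain of skin, rose from 13.9 ± 4.35 to 22 ± 4.67 CPM although its groups overlapped (log2 fold change 0.66 ± 0.22 SE, edgeR adjusted p = 0.0308). Neither of these rises held in every subset of cultures. The call of *Col17a1* was lost without Scr culture 1, Scr culture 2 or Yme1l siRNA culture 2 (edgeR adjusted p 0.061 to 0.0963), and that of *Col7a1* without Scr culture 1, Scr culture 2, Yme1l siRNA culture 1 or Yme1l siRNA culture 2 (0.0642 to 0.11).

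A ratio of a pair of chains within a library does not depend on scaling between libraries. Its size depends on the exon unions used as lengths, whereas its shift between the groups does not. The ratios per kilobase may therefore differ from the ratios of the mRNAs. Before division by length, *Col1a1* had 634436 counts and *Col1a2* 297608 counts in Scr culture 1. Per kilobase, *Col1a1* exceeded *Col1a2* by 4.04, 3.72 and 3.93 times in the Scr cultures and by 6.3, 6.85 and 7.81 times in the Yme1l siRNA cultures. The ratio was higher in every Yme1l siRNA culture, by 0.84 ± 0.097 (SE) on the log2 scale. *Col4a1* over *Col4a2* gave 1.14, 1.16 and 1.07 and then 1.25, 1.34 and 1.28, a shift of 0.2 ± 0.047 without overlap. The ratio of *Col6a1* to *Col6a2* was 3.08, 3.19 and 3.33 in the Scr cultures and 3.33, 3.26 and 3.6 in the Yme1l siRNA cultures, which overlap, with a shift of 0.09 ± 0.053. For *Col5a1* over *Col5a2* the shift was 0.14 ± 0.19, also with overlap. The exact two-sided permutation test over cultures gave p = 0.1, 0.1, 0.2 and 0.5 in this order, or 0.2, 0.2, 0.267 and 0.5 adjusted over the 4 ratios, and 0.1 is the smallest p that 3 against 3 cultures allow.

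A further 3 ratios were chosen after their values were seen and are given with no test. *Col6a3* over *Col6a1* was 0.386, 0.392 and 0.542 in the Scr cultures and 1.52, 1.31 and 1.57 in the Yme1l siRNA cultures. The order of these partners turned round only per kilobase. In mean CPM *Col6a3* was above *Col6a1* in the Scr cultures (2980 and 2530) and in the Yme1l siRNA cultures (2520 and 630). *Col4a5* over *Col4a1* went from 2.49, 2.48 and 2.99 to 0.903, 0.757 and 1.08. *Col3a1* over *Col1a1* went from 0.257, 0.293 and 0.215 to 0.136, 0.133 and 0.131, with little spread among the Yme1l siRNA cultures.

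**Figure D4:**
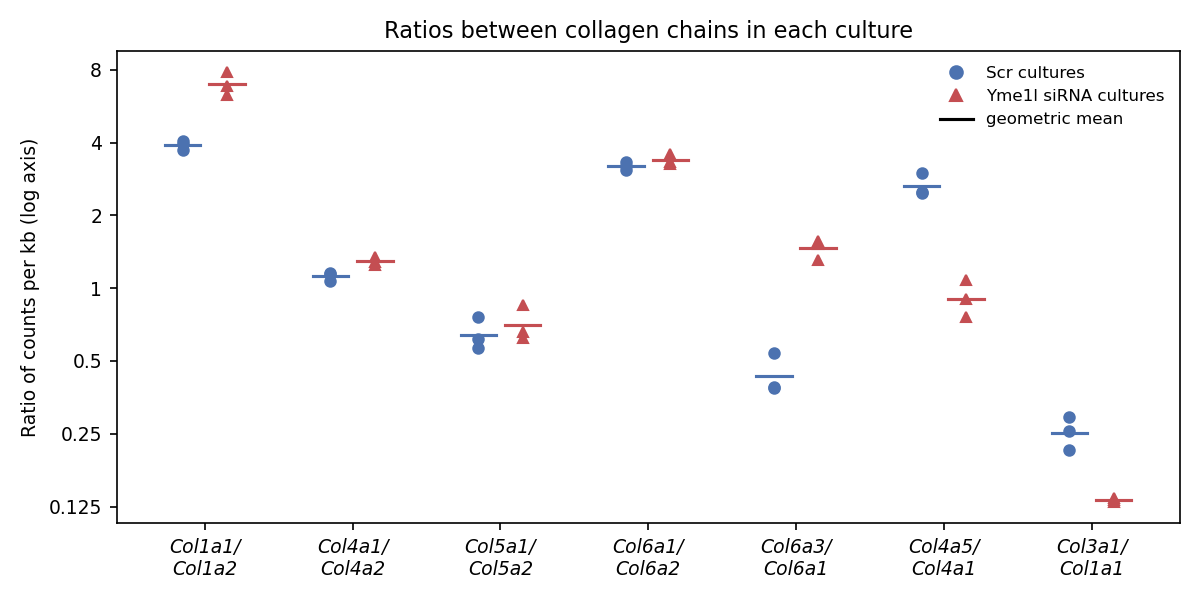
Ratios of counts per kilobase between pairs of collagen chains are plotted on a log axis, 1 point per culture, with the geometric mean of each group as a line. *Col1a1* over *Col1a2* and *Col6a3* over *Col6a1* are higher in the Yme1l siRNA cultures, *Col4a5* over *Col4a1* and *Col3a1* over *Col1a1* are lower, and the groups of *Col5a1* over *Col5a2* and *Col6a1* over *Col6a2* overlap.

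Many collagen mRNAs carry sites for the miR-29 family, small RNAs known to repress extracellular matrix genes in fibroblasts. The mature sequences from RefSeq are shown with the seed (bases 2 to 8) in capitals, since all 3 members share it.
mmu-miR-29a-3p: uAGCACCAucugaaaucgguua
mmu-miR-29b-3p: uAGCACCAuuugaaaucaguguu
mmu-miR-29c-3p: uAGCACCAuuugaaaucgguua
The matching letters TGGTGCT occurred in the annotated 3′ UTR of 17 of the 31 collagens tested (54.8%) and of 14.3% of 11841 genes tested. Sites of collagens that fell by different amounts are shown with the match in capitals, at chr11:94952538-94952544 for *Col1a1*, chr1:45348982-45348988 for *Col3a1*, chrX:141688253-141688259 for *Col4a5*, chr10:76596171-76596177 for *Col6a2* and chr1:90767412-90767418 for *Col6a3*.
Col1a1: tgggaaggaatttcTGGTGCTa
Col3a1: tcaaaatgtctcaaTGGTGCTa
Col4a5: actgctcccaccaaTGGTGCTa
Col6a2: ctccatcccatctgTGGTGCTa
Col6a3: gtgacctgtcaataTGGTGCTa
*Col1a2* and *Col6a1* held no such match. The median log2 fold change was -0.58 over the 17 collagens with a match and -0.7 over the 14 without, and -0.07 and -0.02 over all genes with and without one. Of the 17 with a match 12 fell and 2 rose, and of the 14 without 6 fell and 2 rose. Over all loci tested, 29.6% were called lower and 28.4% higher. No miRNA was measured in these poly(A) libraries, and the letters were chosen for this description after the collagen values were seen.

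Collagen chains are hydroxylated, glycosylated, folded, exported, trimmed and cross-linked by dedicated proteins. Lists of 65 such genes, together with receptors, degrading enzymes and fibril-binding proteoglycans, gave 56 tested, of which 24 were lower, 9 were higher and 23 were not called, with a median log2 fold change of -0.17. These are 42.9% lower and 16.1% higher, beside 29.6% and 28.4% of all loci, and the number higher was 5 without Scr culture 2 or without Yme1l siRNA culture 1. Of 13 hydroxylases and glycosyltransferases tested, which modify proline and lysine in the chains, 7 fell and 2 rose (median -0.44). The smallest adjusted p values belonged to the prolyl 3-hydroxylase family members *P3h4* (log2 fold change -1.17 ± 0.09 SE, edgeR adjusted p = 2.5e-05), *P3h3* (-1.65 ± 0.14 SE, 3.15e-05) and *P3h1* (-0.86 ± 0.08 SE, 5.99e-05). Of the 11 genes for chaperones and export, 3 fell, a share near the 29.6% of all loci, and 1 rose (median 0.03). *Sec23a*, a coat protein of the vesicles that leave the endoplasmic reticulum, fell by 0.77 ± 0.07 SE on the log2 scale (edgeR adjusted p = 4.76e-05), and the prolyl isomerases *Fkbp14* and *Fkbp10* fell by 0.85 ± 0.08 and by 0.38 ± 0.07 (edgeR adjusted p = 4.9e-05 and 0.00131).

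Of 7 genes for propeptide cleavage tested, 2 fell and 2 rose (median -0.16). Both shares are near those of all loci, 29.6% lower and 28.4% higher. *Adamts2*, the protease that removes the amino-terminal propeptides of fibrillar collagens, had 74.1, 69.8 and 52.7 CPM in the Scr cultures and 10.3, 13 and 7.02 CPM in the Yme1l siRNA cultures. The groups were far apart, and the fall was 6.46-fold (log2 fold change -2.69 ± 0.22 SE, edgeR adjusted p = 2.92e-05). *Bmp1*, which removes the carboxy-terminal propeptides, fell to 65.6% of the Scr level (edgeR adjusted p = 0.00019), and *Pcolce2*, an enhancer of that cleavage, rose 1.38-fold (edgeR adjusted p = 0.000718). Among the 5 lysyl oxidases, which cross-link the chains, *Loxl4* rose 1.83-fold (edgeR adjusted p = 0.000328), *Loxl3* rose 1.28-fold with overlapping groups (edgeR adjusted p = 0.0367) and *Loxl1* fell by 0.54 ± 0.12 SE on the log2 scale (edgeR adjusted p = 0.00478). *Lox*, the one with the highest level, was at 1440 ± 346 and 1400 ± 262 CPM (edgeR adjusted p = 0.887), and neither it nor *Loxl2* was called.

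Of 7 receptor genes tested, 3 fell and 2 rose, beside 29.6% lower and 28.4% higher over all loci. Among them, *Itga2*, the collagen-binding integrin chain α2, was at 3.66 ± 0.129 CPM in the Scr and 11.7 ± 3.45 CPM in the Yme1l siRNA cultures (edgeR adjusted p = 0.000256), and the chain *Itga11* was at 87.1 ± 31.6 and 21.8 ± 9.44 CPM (edgeR adjusted p = 0.00157). *Ddr1*, a collagen-binding receptor tyrosine kinase, rose 1.33-fold (edgeR adjusted p = 0.0155). Genes for collagen breakdown and uptake were also lower, 4 of 6 tested with none higher (median -0.81). They included the matrix metalloproteinases *Mmp14* (1080 ± 54.1 to 601 ± 20.8 CPM, edgeR adjusted p = 4.34e-05) and *Mmp2* (927 ± 78.5 to 499 ± 61 CPM, edgeR adjusted p = 0.000208) and the uptake receptor *Mrc2* (969 ± 60.6 to 563 ± 30.7 CPM, edgeR adjusted p = 8.92e-05). Of 7 fibril-binding proteoglycans tested, 4 fell and none rose (median -1.09), with *Prelp* at 15.1%, *Dcn* at 47.1% and *Fmod* at 17.9% of the Scr level (edgeR adjusted p = 3e-05, 0.00081 and 0.00847).

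**Figure D5:**
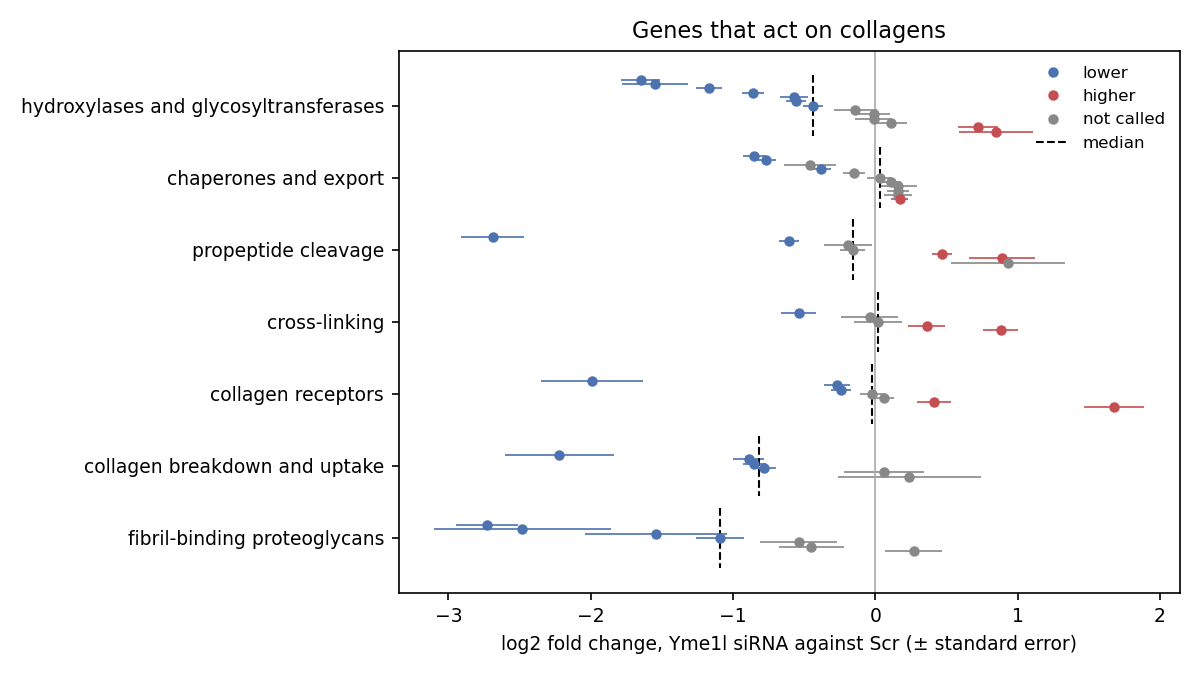
Log2 fold changes with standard errors are plotted for the 56 tested genes that act on collagens, 1 row of points per list, with the list median dashed. Points of the breakdown list and the proteoglycan list lie mostly left of 0, with medians of -0.81 and -1.09, whereas the chaperone and cross-linking lists have medians of 0.03 and 0.02.

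Markers of cell identity also changed, beside 29.6% of all loci called lower and 28.4% called higher. Of 8 fibroblast markers 7 were tested and 6 of these fell, among them *Pdgfra*, *Pdgfrb*, *Fn1* and *Dcn*. The summed level of the 8 lay between 13500 and 14700 CPM in the Scr cultures and between 7910 and 9200 CPM in the Yme1l siRNA cultures. *Fn1* held the largest part of this sum, with means of 9050 and 4590 CPM. *Dcn* is also in the proteoglycan list, and *S100a4* was counted at a locus joined with *S100a3*. *Vim* was not called, and *Thy1* was near 0 in both groups. Of 5 chondrocyte markers 2 of 3 tested fell, including *Sox9*, with a summed level of 176 to 248 and of 146 to 153 CPM, and *Matn1* was at 0. Of 5 osteoblast markers only *Runx2* was tested and fell (summed level 49.9 to 55.3 and 36.6 to 42.9 CPM), and *Ibsp* was at 0. Of 4 macrophage markers only *Csf1r* was tested and rose (summed level 109 to 134 and 183 to 222 CPM), with *Ptprc*, *Adgre1* and *Itgam* at or near 0. Of 4 endothelial markers 3 were tested and 2 rose (summed level 3.79 to 4.08 and 5.68 to 7.81 CPM), and of 6 epithelial markers only *Krt8* was tested and rose (0.115 to 0.194 and 0.831 to 1.33 CPM), with *Krt5* at 0. The part of these markers' changes in the collagen results was not tested.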

How the data were processed

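Poly(A)-selected RNA of the 6 cultures was sequenced from both ends as stranded libraries. The authors mapped reads to mm10 (Ensembl annotation) with HISAT2 2.0.4, assembled transcripts with StringTie 1.3.3 and compared the groups with Cufflinks (Cuffdiff 2.2.1). The values used here are the raw counts per locus that the authors deposited without normalization, and the counting program and its use of strand are not given in the sources used here. The second deposited table holds the output of the authors' comparison (group FPKM, fold changes and p-values) and was not used. All 6 columns of counts were mapped to a sample from the labels, and all 51499 loci carry a gene name.

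edgeR 4.0.16 (R 4.3.3) gave TMM factors (0.958 to 1.03) and the quasi-likelihood test between the groups without covariates, after filterByExpr (minimum count 10, total 15). Benjamini-Hochberg adjustment ran over the 14499 loci kept. The biological coefficient of variation was 0.131. SEs were taken as the absolute log2 fold change over the square root of F. With 37260605 to 45205207 counts per library, counting error is small for collagens above 10 CPM. Libraries of the same group were distinct, since chi-square over degrees of freedom for their counts was 10.08 to 74.47.

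Classes and pathway lists follow textbook function, and the members and lists were chosen with earlier results of these data known. Values per culture are given for the 15 collagens that, in their class, were among the 3 with the highest mean CPM, the 3 with the smallest adjusted p or the 2 with the largest absolute log2 fold change among those called, and for partners in the ratios. From each pathway list the 3 genes with the smallest adjusted p are named. Other genes were named after their values were seen. Exonic lengths, overlaps and 3′ UTRs come from GENCODE M21 on mm10, and near-identical transcripts (at least 95% over 200 bases) were sought with BLAST 2.17.0. The exonic length of a gene is the union of all its annotated exons. Alternatives were DESeq2 1.42.0, limma-voom (limma 3.58.1), other scaling and filters, a threshold of 0.01, each culture left out in turn and a block for the replicate number. The scripts were tested on simulated data. Tables and figures were made with Python 3.11.15, pandas 2.3.3, numpy 2.4.6, scipy 1.17.1 and matplotlib 3.10.9.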

Additional observations from a re-analysis of the deposited data

How the results depend on the processing

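Of the 22 collagens called, 18 kept their call when any 1 culture was left out (16 lower and 2 higher), and 15 lower and 2 higher lost it under no alternative in which they were tested. *Col6a5*, one of these 2, was not tested with a minimum mean of 50 counts. The number of collagens higher moved from 4 to 2 with a minimum mean of 50 counts and with an adjusted p under 0.01, where 17 and 15 were lower. The first of these also moved the basement membrane median to -0.86. The pathway lists held 4 genes higher with an adjusted p under 0.01. Leaving out 1 culture gave 2 to 6 collagens higher and 16 to 18 lower, class medians of -0.95 to -0.61 (fibrillar), -0.61 to -0.3 (basement membrane) and -0.6 to -0.33 (remaining), and 5 to 11 pathway genes higher and 21 to 28 lower. Among collagens that were not called, the log2 fold change of *Col9a3* was 0.01 without Scr culture 3, and that of *Col5a3* was -0.16 without Yme1l siRNA culture 1. Over all cultures left out in turn they ranged from -0.4 to 0.01 and from -0.16 to 0.16. The call of *Col6a3* was also lost with DESeq2 size factors, upper-quartile factors, no filter and a minimum mean of 50 counts (edgeR adjusted p 0.0505 to 0.0867). *Col12a1* was called lower by DESeq2 (adjusted p = 0.016). It was also called lower without a filter (edgeR adjusted p = 0.0144), without Scr culture 3 (0.0305) and without Yme1l siRNA culture 1 (0.0247). *Col14a1* was called lower without Scr culture 3 (edgeR adjusted p = 0.0129), and *Col6a4* was called higher without Yme1l siRNA culture 3 (log2 fold change 0.67). The cause of these changes was not tested.

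Correlations of the deviations of same-numbered cultures were 0.0409, 0.1155 and 0.1919. Differently numbered cultures were not compared, so these values cannot show whether the numbers pair the cultures, and the main test used no pairing. With the replicate number as a block, 21 collagens were lower and 4 higher, with *Col4a1* (log2 fold change -0.31), *Col11a2* (-0.74) and *Col12a1* (-0.44) added to the calls and none lost.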
